A study of Mus musculus with 10 samples.

Results

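Complex I (NADH:ubiquinone oxidoreductase) takes electrons from NADH, passes them to ubiquinone and pumps protons across the inner mitochondrial membrane. Its matrix arm carries the flavin and the iron-sulfur clusters and its membrane arm carries the proton channels. The catalytic core is encoded in both the nuclear and the mitochondrial genome, the supernumerary subunits around the core are encoded in the nucleus, and assembly factors help to build the complex but are absent from the finished enzyme. Hematopoietic stem cells (HSCs) of the fetal liver divide actively and are known for a more oxidative metabolism than resting adult HSCs.

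The genes described here are those whose symbol in the deposited count table begins with Nduf, 49 of 17404 genes. Of these, 41 have subunit symbols (Ndufa, Ndufb, Ndufc, Ndufs and Ndufv) and 8 are assembly factors (Ndufaf1 to Ndufaf8). Among the 41, 37 are subunits of complex I: 7 core subunits, 9 supernumerary subunits of the matrix arm, 20 of the membrane arm, and Ndufab1, the acyl carrier protein found in both arms. The other 4 are Ndufa4, now counted with cytochrome c oxidase, its paralog Ndufa4l2, the pseudogene Ndufa12.ps, and Ndufb4c, a copy of Ndufb4 that Gencode lists as a processed pseudogene. Ndufb1 is counted as a membrane-arm subunit although Gencode gives its gene the type of a long noncoding RNA from a bidirectional promoter. The 49 genes all reached at least 11 counts in total and were tested.

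Bulk RNA-seq was performed on long-term HSCs (LT-HSCs) sorted from the mouse fetal liver at E14.5. The 6 KO libraries came from Tnfrsf11aCre; Spi1f/f embryos and the 4 WT libraries from Tnfrsf11a+/+; Spi1f/f littermates, so that both groups carry floxed Spi1, the gene of the transcription factor PU.1. Cre is expressed from the Tnfrsf11a locus in macrophage precursors, where it deletes Spi1 and so depletes macrophages, while the HSCs themselves are not its target. The comparison asks how the LT-HSC transcriptome differs where macrophages are depleted. No label ties a library to a litter, and the p-values measure the spread between these 10 libraries. Replicate numbers below are names only.

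Depth was 5315435 to 30941726 counts per KO library and 7633446 to 18256010 per WT library. Spi1 was called neither lower nor higher in KO (log2 fold change 1.31, SE 0.69, adjusted p = 0.337 in edgeR). Its level was 9.1 to 101 CPM (counts scaled to the TMM-normalized library size) in KO, with a median of 65.6 CPM. In WT libraries it was 6.22 to 50.1 CPM. Xist, the RNA of the inactive X chromosome, was at 346 and 361 CPM in KO replicates 3 and 2. It was at 1.37 to 2.38 CPM in the other 4 KO libraries and at 106 to 149 CPM in the 4 WT libraries. Judged by this RNA, sex, which no label gives, was partly confounded with genotype. By edgeR, 1.32% of all genes tested were called higher and 2.67% lower in KO. Of 10 LT-HSC markers, 2 were higher and 0 lower in KO (summed level 348 to 1558 CPM in KO and 506 to 631 CPM in WT). Of 12 macrophage markers, 1 was lower, Marco, with 0 counts in every KO library (sums of 216 to 925 CPM in KO and 91.9 to 708 CPM in WT). Of 9 erythroblast markers, 1 was lower, with sums from 2115 to 94931 CPM in KO and from 2213 to 240134 CPM in WT, the top value in WT replicate 3. No granulocyte (9), megakaryocyte (6), hepatoblast (6) or endothelial (6) marker passed edgeR's test. Their sums ran from 10.7 to 1238, 237 to 3450, 89.3 to 7935 and 901 to 6121 CPM in KO, and from 6.07 to 2121, 221 to 1192, 241 to 5331 and 207 to 3844 CPM in WT. The median log2 fold change was 1.28 over the LT-HSC markers, -0.97 over the macrophage, -1.37 over the erythroblast, 0.43 over the granulocyte, 1.09 over the megakaryocyte, 0.73 over the hepatoblast and 0.31 over the endothelial markers. The part of these cells in the results on complex I was not tested.

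Transcripts of nuclear complex I genes were less abundant in LT-HSCs of KO than of WT embryos. The log2 fold change was below 0 for 48 of the 49 Nduf genes (46.9% of all genes tested), with a median of -0.64 against 0.06 over all 16725 genes. By the quasi-likelihood test of edgeR, adjusted by Benjamini-Hochberg over all genes, 18 Nduf genes (36.7%) fell at an adjusted p below 0.1, a call made for 2.67% of all genes tested. None rose, where 1.32% of all genes did. At an unadjusted p below 0.05, 43 of the 49 were lower and 0 higher, against 1701 and 1438 of all 16725 genes. In 19 of the 49 genes every KO library lay below every WT library, as in 3.48% of all genes. In bulk libraries, fewer cells of a type and less RNA per cell cannot be told apart.

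Medians of the subunits and the assembly factors lay close to each other. Of the 41 genes with subunit symbols, 16 fell, with a median log2 fold change of -0.65, and of the 8 assembly factors 2 fell, with a median of -0.60. The difference between these sets was not tested. The calls were 9 of 20 in the membrane arm (median -0.72), 4 of 9 in the matrix arm (median -0.64) and 1 of 7 among core subunits (median -0.57), beside Ndufab1 of both arms. At an unadjusted p below 0.05, 19 of 20, 8 of 9 and 7 of 7 were lower, where 1701 of all 16725 genes were. No difference between these classes was tested. The ranges of the log2 fold changes in the membrane and the matrix arm overlapped, at -1.11 to -0.45 and -1.03 to -0.23.

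**Figure D1:**
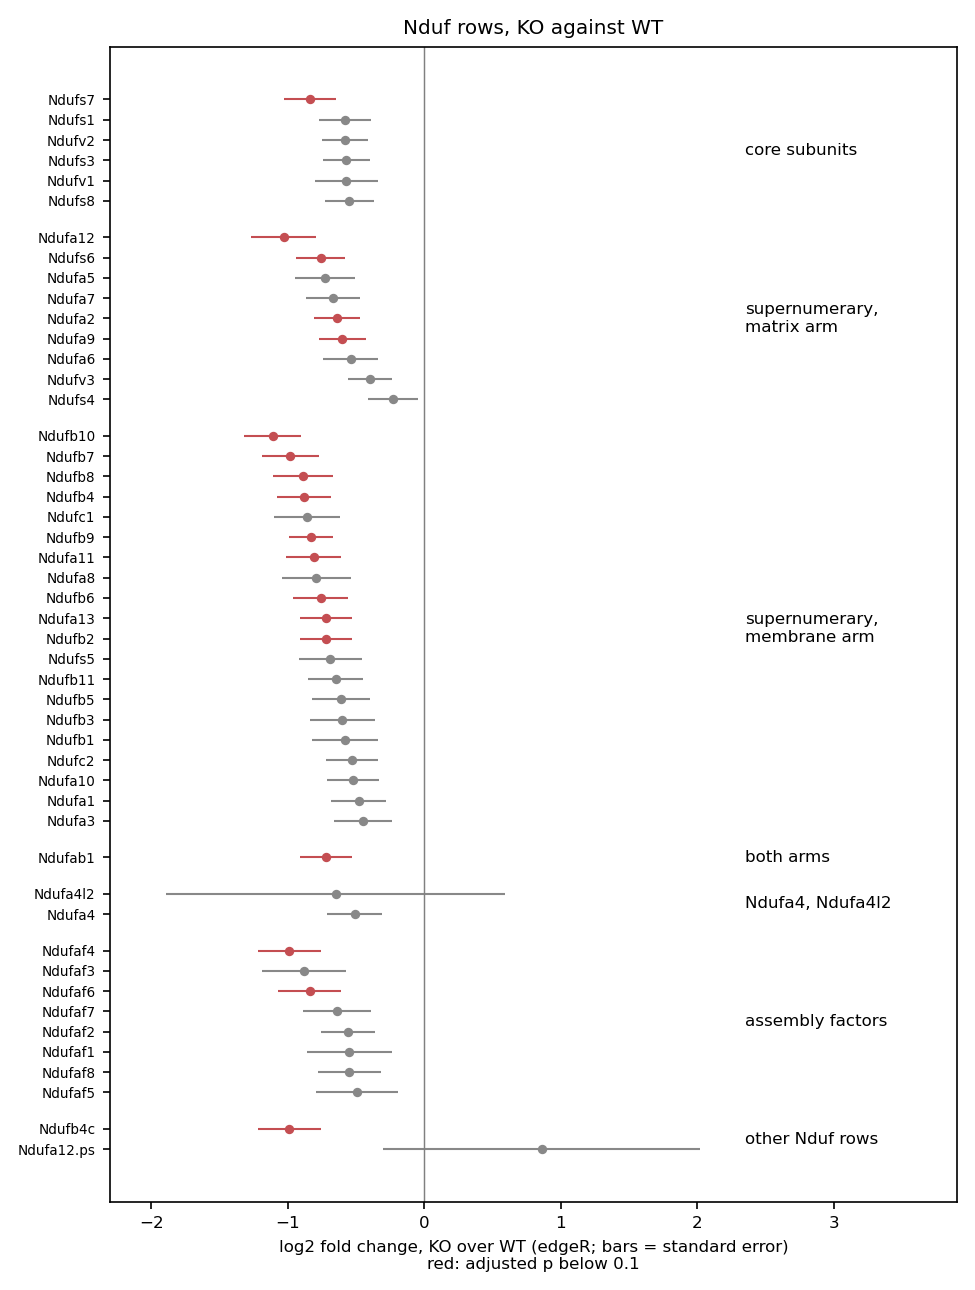
Log2 fold change of 48 Nduf genes, KO over WT, from edgeR (x axis), with its standard error as a bar. Genes are grouped by their place in complex I and drawn in red at an adjusted p below 0.1. All points but that of Ndufa12.ps lie left of 0, and the 18 red points run from -1.11 (Ndufb10) to -0.60 (Ndufa9).

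These calls lay close to the threshold. The adjusted p-values of the 18 genes ran from 0.0824 to 0.0997, and the smallest of any gene was 0.0743. Once WT replicate 1, or any KO library except KO replicate 3, was left out, no Nduf gene was called lower by edgeR, nor was any other gene. In these fits, 36 to 42 of the 49 Nduf genes were lower at an unadjusted p below 0.05. So were 1316 to 1663 of all genes, of 16374 to 16684 tested. Without KO replicate 3, 29 Nduf genes were called lower, and without WT replicates 2, 3 and 4, 21, 14 and 8. Over all genes, these 4 fits called 598 of 16602, 532 of 16662, 401 of 16616 and 451 of 16671 lower. The median log2 fold change stayed between -0.75 and -0.54 for subunits and between -0.78 and -0.48 for assembly factors. With the DESeq2 settings of the study, 19 Nduf genes were lower (3.29% of all genes tested), and with DESeq2 without a fold-change threshold, 33 were (6.85%).

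**Figure D2:**
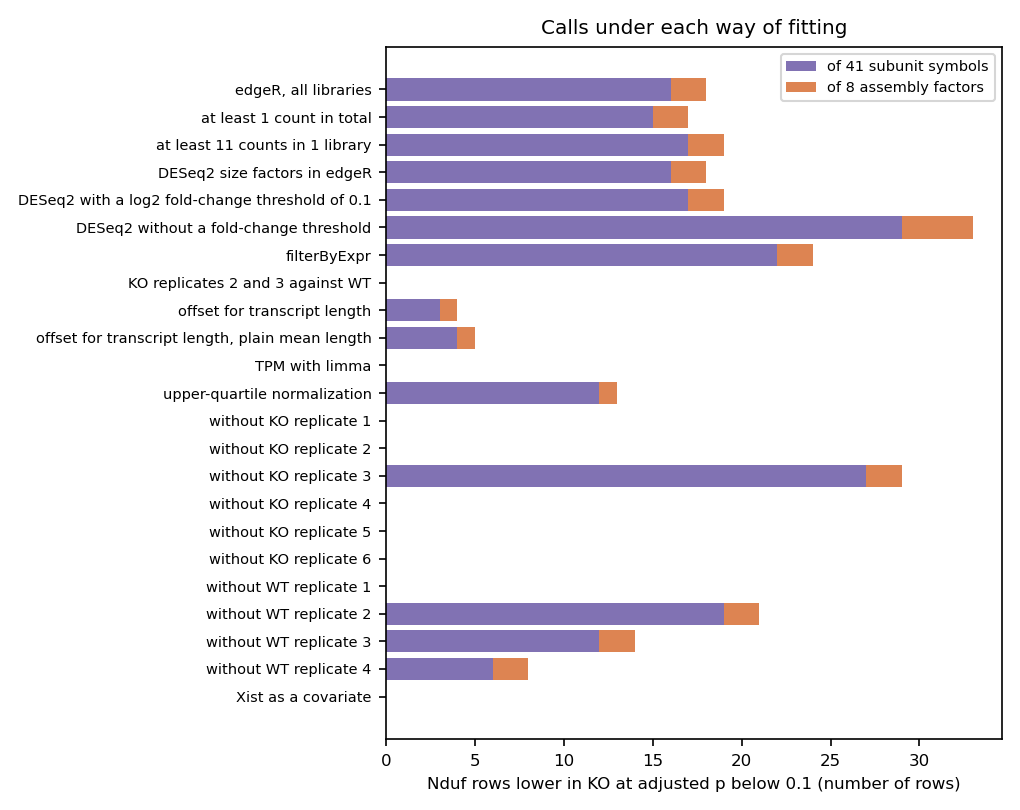
Number of Nduf genes lower in KO at an adjusted p below 0.1 (x axis) under each way of fitting (y axis), with subunit symbols in purple and assembly factors in orange. Bars reach 33 genes with DESeq2 without a threshold and are absent in 6 of the 10 fits that leave out 1 library, with Xist as a covariate, with TPM, and for KO replicates 2 and 3 alone against WT. The TPM fit called 12 of all genes lower, and the other fits without bars called 0.

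In the membrane arm, Ndufb10, a subunit of its distal part that faces the intermembrane space, had the smallest p of all Nduf genes. Its level was 126 CPM in the lowest KO library, 168 CPM at the median and 206 CPM in the highest, and 415, 255, 301 and 489 CPM in WT replicates 1 to 4. No KO library reached the lowest WT library. Ndufb10 fell by 1.11 on the log2 scale (SE 0.21), which is 53.8% lower, at an adjusted p of 0.0824 in edgeR (Benjamini-Hochberg), and 0.000668 to 0.837 over the alternatives. Permuting its CPM over all splits (exact, two-sided) gave p = 0.00952, the smallest that 6 against 4 libraries allow. This unadjusted value restates the lack of overlap and holds for any gene without overlap. In 3.48% of all genes every KO library lay below every WT library.

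Ndufb9, a protein of the LYR family on the matrix side of the membrane arm, had 208 CPM in the lowest KO library, a median of 234 CPM and 285 CPM in the highest. In WT replicates 1 to 4 it had 476, 340, 386 and 488 CPM, all above the KO libraries. It fell by 0.83 on the log2 scale (SE 0.16, adjusted p = 0.0824 in edgeR, 0.000851 to 0.837 over the alternatives). In the annotation, 19.5% of its exonic bases are shared with Gm49356 on the same strand, and reads there cannot be assigned to either gene alone. Ndufb7, a small twin-cysteine-motif protein of the intermembrane-space side, had 110 CPM in the lowest KO library, a median of 138 CPM and at most 190 CPM. Its WT values were 225, 229, 270 and 412 CPM in replicates 1 to 4, again without overlap. For Ndufb7 the log2 fold change was -0.98 (SE 0.21, adjusted p = 0.0824 in edgeR, 0.00411 to 0.837 over the alternatives).

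Ndufa3, a small membrane-spanning subunit near the base of the membrane arm, had the largest p of this class. Its KO libraries ran from 180 CPM through a median of 215 CPM to 267 CPM, and its WT libraries were at 222, 253, 280 and 441 CPM in replicates 1 to 4. The groups overlapped, with 3 of 6 KO libraries below every WT library, and WT replicate 4 stood well above the others. Its log2 fold change was -0.45 (SE 0.21, adjusted p = 0.267 in edgeR).

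The other membrane-arm subunits that fell were Ndufb8 (-0.89), Ndufb4 (-0.88), Ndufa11 (-0.81), Ndufb6 (-0.76), Ndufa13 (-0.72) and Ndufb2 (-0.72), on the log2 scale. Ndufc1 lay just outside the threshold (log2 fold change -0.86, adjusted p = 0.101 in edgeR) and Ndufa9 of the matrix arm just inside it (-0.60, adjusted p = 0.0997). Ndufb11 and Ndufa1 are the 2 members on the X chromosome. Ndufb11 had a log2 fold change of -0.65 and Ndufa1 one of -0.48, and neither passed the test. In the annotation, Ndufb6 shares 39% of its exonic bases with Smim27 and Ndufa13 shares 30% with Tssk6, on the other strand in both, and reads there cannot be told apart. Ndufb4c is a copy of Ndufb4, so reads may have been split between them. Their summed level was 95.2 CPM on average in KO and 183 CPM in WT, and Ndufb4c alone had a log2 fold change of -0.99 (SE 0.23, adjusted p = 0.0824 in edgeR).

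**Figure D3:**
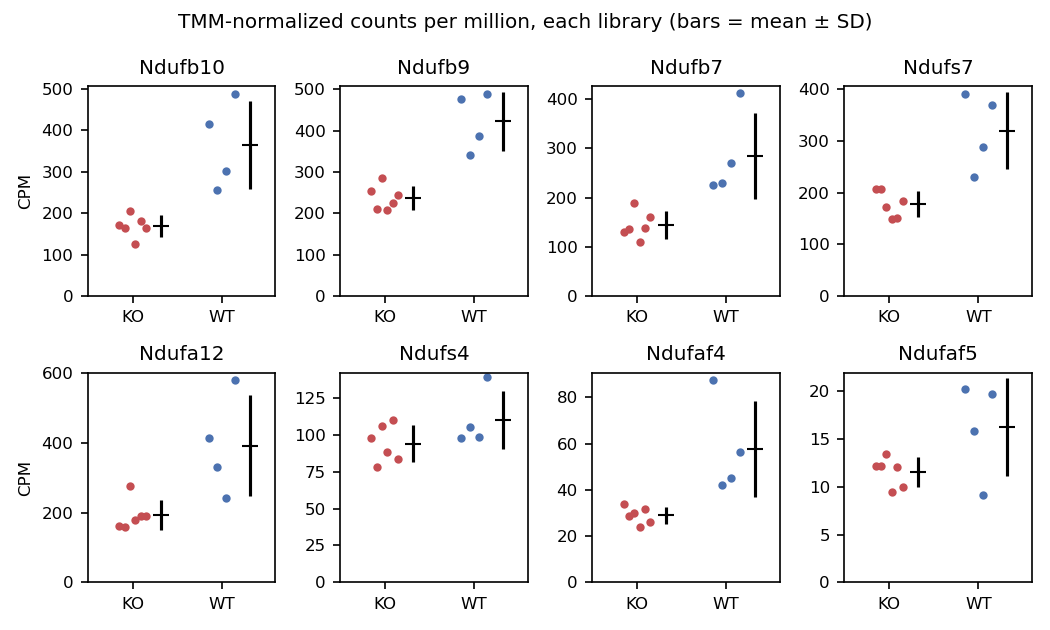
TMM-normalized CPM of 8 Nduf genes (y axes start at 0) in each KO (red) and WT (blue) library, with the mean ± SD beside the points. Ndufb10, Ndufb9, Ndufb7, Ndufs7 and Ndufaf4 show no overlap between the groups. Ndufa12 has 1 KO library at 276 CPM inside the WT range, and Ndufs4 and Ndufaf5 overlap broadly.

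Among the core subunits, Ndufs7 carries the last iron-sulfur cluster before ubiquinone. It ran from 149 CPM through a median of 178 CPM to 207 CPM in KO, and it had 392, 230, 288 and 369 CPM in WT replicates 1 to 4. Every KO library was below every WT library, and Ndufs7 was the core subunit that passed the test (log2 fold change -0.84, SE 0.19, adjusted p = 0.0824 in edgeR, 0.00475 to 0.837 over the alternatives). Ndufv2, which carries a cluster beside the flavin, also showed no overlap. Its KO libraries were at 135 to 184 CPM (median 176 CPM) and its WT libraries at 323, 211, 216 and 269 CPM. It had a log2 fold change of -0.58 (SE 0.17, adjusted p = 0.111 in edgeR).

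Ndufs3, a subunit of the ubiquinone-binding part that is built early in assembly, had 130 to 185 CPM in KO (median 140 CPM) and 228, 174, 207 and 266 CPM in WT. In 5 of 6 KO libraries it was below all WT libraries (log2 fold change -0.57, SE 0.17, adjusted p = 0.112 in edgeR). Ndufv1 binds the flavin that accepts electrons from NADH, and had the largest p of the core. It ran from 126 to 238 CPM in KO (median 193 CPM) and was at 384, 237, 333 and 193 CPM in WT, with WT replicates 2 and 4 inside the KO range. For Ndufv1 the log2 fold change was -0.57 (SE 0.23, adjusted p = 0.204 in edgeR). Ndufs1 (-0.58) and Ndufs8 (-0.55), which also carry iron-sulfur clusters, did not pass the test.

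In the matrix arm, Ndufa12, an accessory subunit that joins late and takes the place of the assembly factor Ndufaf2, was at 158 CPM in the lowest KO library, a median of 184 CPM and 276 CPM in the highest, KO replicate 3. In WT replicates 1 to 4 it was at 414, 331, 242 and 579 CPM. The groups overlapped by that KO library alone, which lay above WT replicate 3. Ndufa12 fell by 1.03 on the log2 scale (SE 0.24, adjusted p = 0.0824 in edgeR, 0.00709 to 0.837 over the alternatives). A pseudogene row, Ndufa12.ps, held at most 1.32 CPM in any library and had a log2 fold change of 0.86 (SE 1.16, adjusted p = 0.745 in edgeR), which turned to -0.15 with Xist as a covariate.

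Ndufs6, a zinc-binding subunit of the NADH-oxidizing part, had 117 to 168 CPM in KO (median 150 CPM) and 312, 190, 219 and 259 CPM in WT, without overlap. Its log2 fold change was -0.76 (SE 0.18, adjusted p = 0.0824 in edgeR, 0.00954 to 0.837 over the alternatives). Ndufa2, which has a thioredoxin-like fold, had 197 to 276 CPM in KO (median 230 CPM) and 347, 281, 358 and 468 CPM in WT, also without overlap (log2 fold change -0.64, SE 0.17, adjusted p = 0.0905 in edgeR, 0.0128 to 0.837 over the alternatives). Of its exonic bases, 11.5% are shared with Tmco6 on the other strand. Ndufs4, an accessory subunit whose loss causes Leigh-like disease in mice, was the subunit closest to no difference. It was at 78.2 to 110 CPM in KO (median 92.8 CPM) and at 97.8, 105, 98.6 and 139 CPM in WT. Its log2 fold change was -0.23 (SE 0.18, adjusted p = 0.524 in edgeR). Ndufa5 (-0.73), Ndufa7 (-0.67), Ndufa6 (-0.54) and Ndufv3 (-0.40) did not pass the test, and Ndufab1 did (-0.72, adjusted p = 0.0906 in edgeR).

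Among the assembly factors, Ndufaf4 works with Ndufaf3 in building the ubiquinone-binding part. It had 23.9 to 33.9 CPM in KO (median 29.3 CPM) and 87.6, 42.1, 45 and 56.2 CPM in WT replicates 1 to 4, and it was the assembly factor without overlap of the groups. Ndufaf4 fell by 0.99 on the log2 scale (SE 0.23, adjusted p = 0.0824 in edgeR, 0.00571 to 0.837 over the alternatives). Ndufaf6, needed for the mitochondrially encoded ND1 to be made or kept, had 18.8 to 27.9 CPM in KO (median 21.1 CPM). It was at 47.5, 41.4, 26.4 and 45.6 CPM in WT, where replicate 3 lay inside the KO range (log2 fold change -0.84, SE 0.23, adjusted p = 0.0918 in edgeR, 0.0114 to 0.837 over the alternatives).

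Ndufaf2, the chaperone that Ndufa12 replaces, had 31.4 to 37.1 CPM in KO (median 33 CPM) and 57.1, 36.6, 43 and 59.3 CPM in WT, with WT replicate 2 inside the KO range. Its log2 fold change was -0.56 (SE 0.20, adjusted p = 0.156 in edgeR), and 65.6% of its exonic bases are shared with B230220B15Rik on the other strand. Ndufaf5, which hydroxylates Ndufs7, had 9.42 to 13.4 CPM in KO (median 12.1 CPM) and 20.2, 15.8, 9.1 and 19.7 CPM in WT, with the lowest of all 10 libraries in WT. The log2 fold change was -0.49 (SE 0.30, adjusted p = 0.409 in edgeR). Ndufaf3 (-0.88), Ndufaf7 (-0.64), Ndufaf8 (-0.55), the partner of Ndufaf5, and Ndufaf1 (-0.55) did not pass the test.

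Ndufa4, outside complex I, had 240 to 368 CPM in KO (median 297 CPM) and 395, 369, 339 and 608 CPM in WT. In 5 of 6 KO libraries it was below all WT libraries, with a log2 fold change of -0.51 (SE 0.20, adjusted p = 0.189 in edgeR). Ndufa4l2, a paralog induced by hypoxia in other cells, was near the detection limit, at 0 to 2.92 CPM in KO (median 1.09 CPM) and 5.92, 1.33, 0.37 and 0 CPM in WT. Its log2 fold change of -0.65 (SE 1.24, adjusted p = 0.826 in edgeR) rested on WT replicate 1 and was 1.07 without it.

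The subunits were also compared library by library. On the log2(CPM + 1) scale, the median deviation of the 37 complex I subunits from their own mean over the 10 libraries was -0.43 to -0.22 in 5 KO libraries, 0.08 in KO replicate 3, and 0.46, 0.12, 0.21 and 0.73 in WT replicates 1 to 4. KO replicate 3 was the highest KO library for 27 of the 37 subunits. It also had the lowest LT-HSC marker sum (348 CPM) and the highest macrophage (925 CPM) and endothelial (6121 CPM) marker sums of the 10 libraries, whose part in its level was not tested. Among WT libraries, replicate 4 was the highest for 25 of the 37. The 8 assembly factors had median deviations of -0.39 to -0.04 in KO and 0.86, 0.14, 0.18 and 0.57 in WT, where replicate 1 was the highest library for 6 of 8. As a sum, the KO libraries held 5666 ± 766 CPM (SD, n = 6) of the 37 subunits against 9201 ± 1917 CPM (SD, n = 4) in the WT libraries, and 220 ± 15.6 CPM (SD, n = 6) of the assembly factors against 356 ± 98.2 CPM (SD, n = 4). The subunit sums did not overlap between the groups in CPM (highest KO library 7103, lowest WT library 7406). On the TPM scale they did, at 9884 ± 1908 TPM (SD, n = 6; 7808 to 13080) in KO against 11970 ± 3321 TPM (SD, n = 4; 7701 to 15684) in WT. As a share of the deposited counts without TMM scaling they overlapped too, at 0.546% to 0.731% in KO and 0.591% to 1.08% in WT. The ratio of the summed CPM of subunits to that of assembly factors was 25.7 ± 2.27 (SD, n = 6) in KO and 26.6 ± 6.08 (SD, n = 4) in WT, ranges that overlapped.

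**Figure D4:**
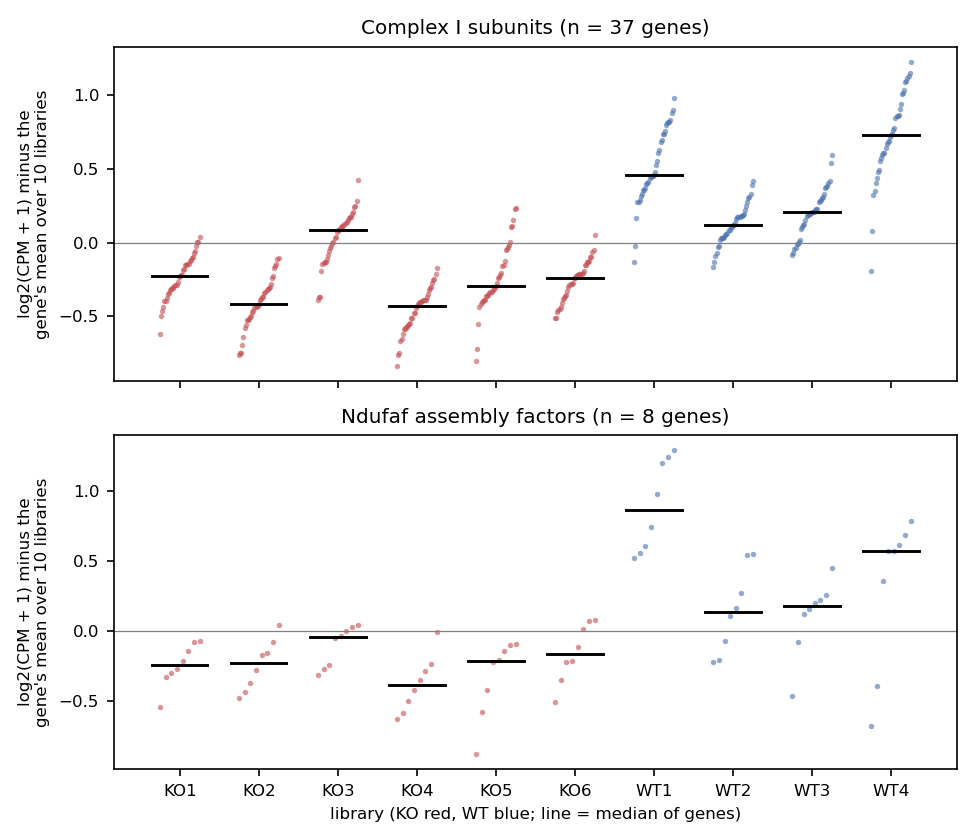
Deviation of each gene's log2(CPM + 1) from its mean over the 10 libraries (y axis), for the 37 complex I subunits (top) and the 8 Ndufaf assembly factors (bottom) in each library (x axis, KO red, WT blue). Lines are medians over genes. The subunit median is below 0 in 5 of 6 KO libraries and above 0 in KO replicate 3 and all 4 WT libraries.

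Levels were compared between genes on the TPM scale, which divides by transcript length. In WT, Ndufb8 had the highest level of the 48 Nduf genes with transcripts in the tables (1031 ± 345 TPM, SD, n = 4), followed by Ndufa3 (750 ± 264 TPM, SD, n = 4) and Ndufa4 (704 ± 227 TPM, SD, n = 4), neighbours that differed by less than their spread. The median WT level was 306 TPM over the 37 complex I subunits, 218 TPM over the 7 core subunits and 33.4 TPM over the 8 assembly factors. Subunits ranged 15.8-fold, from 65.4 TPM for Ndufa11 upward. The highest assembly factor, Ndufaf8 (92.7 TPM), lay above 3 subunits, Ndufs1 (73.2 ± 24.5 TPM, SD, n = 4), Ndufb4 (65.9 ± 19.4 TPM, SD, n = 4) and Ndufa11 (65.4 ± 21.1 TPM, SD, n = 4), and its own SD was 31.8 TPM. Of 37 Nduf genes with more than 1 transcript, none had a leading transcript whose share of the gene's TPM was separate between KO and WT libraries.

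Most Nduf transcripts are short, and transcript length moved with genotype over all genes. The weighted length was 692 bases at the median of the 48 Nduf genes and 2265 bases over all genes tested, and 38 of the 48 were under 1000 bases. The rank correlation across genes between length and the deviation from a gene's mean was 0.0582 to 0.208 in the 6 KO libraries and -0.175 to -0.0881 in the 4 WT libraries. All genes were then split by length into 5 classes of like size. Genes of the shortest class had a median log2 fold change of -0.30 and 7.55% of them were called lower. In the longest class the median was 0.34 and 0.362% were called lower. The 41 Nduf genes in the shortest class had a median of -0.65, and 15 of them (36.6%) were called lower.

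**Figure D5:**
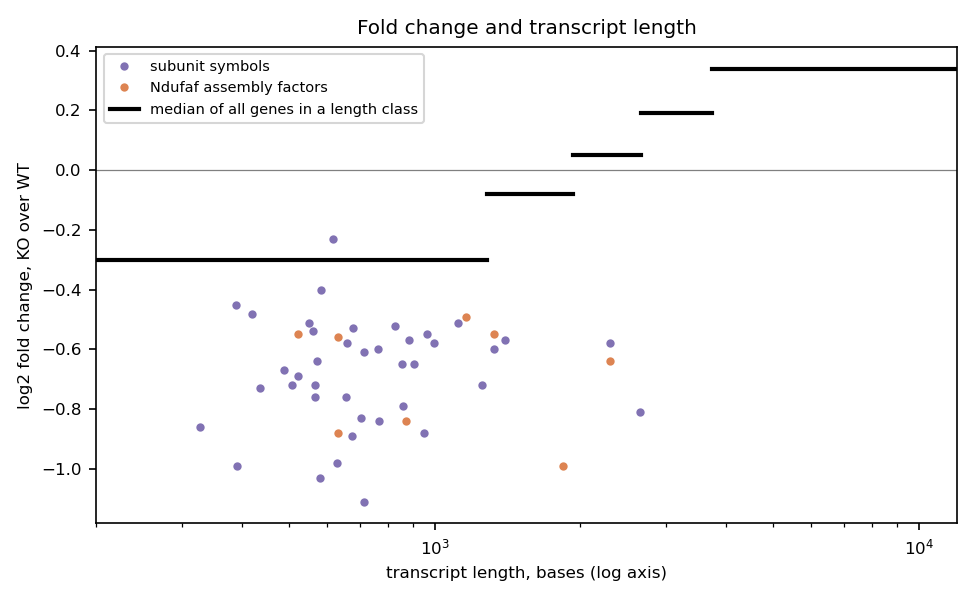
Log2 fold change, KO over WT (y axis), against weighted transcript length in bases (x axis, log scale) for 48 Nduf genes, with the median of all genes in each of the 5 length classes as a black line. The lines rise from -0.30 to 0.34, and the Nduf genes lie below the line of their class except Ndufs4 at -0.23.

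With an offset for transcript length in each library, 4 Nduf genes were called lower by edgeR (2.51% of all genes tested), 3 subunit symbols and 1 assembly factor. The offset moved the median of all genes to -0.16. Relative to that, the subunits had a median of -0.39 and the assembly factors one of -0.49 on the log2 scale, against -0.71 and -0.66 without the offset. On log2(TPM + 1) with limma, the median of all genes was 0.27, and subunits lay at -0.46 and assembly factors at -0.40 relative to it. No Nduf gene passed the test, where 12 of 16559 genes were called lower and 476 higher. At an unadjusted p below 0.05, 1 Nduf gene and 145 of all genes were lower.

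With Xist as a covariate, the median log2 fold change was -0.61 for subunits and -0.59 for assembly factors. No gene of the 16725 tested was called in either direction by edgeR. At an unadjusted p below 0.05, 29 of the 49 Nduf genes were lower, and 1494 of all genes. KO replicates 2 and 3, with 361 and 346 CPM of Xist, were also compared alone with the 4 WT libraries, which had 106 to 149 CPM. The medians of subunits and assembly factors were then -0.59 and -0.60. All 49 Nduf genes had a negative log2 fold change. No gene of the 15507 tested was called, and 9 Nduf genes and 456 of all genes were lower at an unadjusted p below 0.05.

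Other genes of complex I followed this pattern in part. Of 11 further assembly factors in the table, 1 (9.09%) was called lower by edgeR, a call made for 2.67% of all genes tested. It was Ecsit, a partner of Ndufaf1 in building the membrane arm. Its KO level was 51.9 ± 12.2 CPM (SD, n = 6) and its WT level 97.3 ± 28.2 CPM (SD, n = 4), a log2 fold change of -0.91 (SE 0.23, adjusted p = 0.0856 in edgeR). The median of the 11 was -0.42, and 10 of them had a log2 fold change below 0, as 46.9% of all genes did. At an unadjusted p below 0.05 in edgeR, 5 of the 11 were lower, and 1701 of all 16725 genes. The 7 mitochondrially encoded subunits, the proton-pumping core of the membrane arm, had log2 fold changes from -0.25 (ND2) to 0.32 (ND3) with a median of -0.07. None of the 7 was called in either direction by edgeR, at an unadjusted p below 0.05, or by DESeq2 with the settings of the study, and the difference between nuclear and mitochondrial subunits was not tested. The KO level of ND1 was 3404 ± 1384 CPM (SD, n = 6) and its WT level 3616 ± 568 CPM (SD, n = 4).

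Of 11 regulators of mitochondrial genes, none was called in either direction by edgeR or by DESeq2 with the settings of the study. At an unadjusted p below 0.05, 1 was lower and 1 higher, which is near the share over all genes (1701 lower and 1438 higher of 16725). Tfam, which packages mitochondrial DNA, had a log2 fold change of -0.48 (SE 0.21, adjusted p = 0.248 in edgeR). Ppargc1a, a coactivator of mitochondrial biogenesis, had one of 1.74 (SE 0.70, adjusted p = 0.205 in edgeR) with a KO level of 3.52 ± 1.93 CPM (SD, n = 6) and a WT level of 1.06 ± 0.473 CPM (SD, n = 4). Nrf1 (-0.20), Gabpa (-0.06) and Yy1 (-0.11), factors that bind promoters of many respiratory genes, had fold changes within their standard errors.

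Promoters of the Nduf genes were searched for the core motifs of those factors. RefSeq (GRCm38.p6) promoters, from 250 bases before to 50 after the start, were at hand for 41 Nduf genes in 43 windows, and both strands were read. The NRF1 core GCGCATGCG was in 4 of 43 windows (9.3%) and 1.75% of all 32851 promoters. The ETS core CCGGAAG was in 6 (14%) and 8.86% of all, and the YY1 core AAGATGGCG in 6 (14%) and 1.4% of all. At least 1 of the motifs was in 15 windows (34.9%) and 11.4% of all promoters. A match is a description of the letters and not a bound site. The stretches below are those of the 3 subunits with the smallest p that hold a motif, 5′ to 3′ on the gene's strand, with the motif in capitals. They lie at chr8:83566726-83566755 (plus strand, upstream of the RefSeq start), chr10:80249462-80249491 (plus strand, shortly after the RefSeq start) and chr13:73328433-73328462 (minus strand, shortly after the RefSeq start). In Gencode the genes begin further upstream, Ndufb7 at 83566671, Ndufs7 at 80249121 and Ndufs6 at 73328542. By that annotation all 3 stretches lie inside the genes.
Ndufb7: agcctagatgacCCGGAAGacactgaaggg
Ndufs7: aggccgaggccAAGATGGCGgcgctggcgg
Ndufs6: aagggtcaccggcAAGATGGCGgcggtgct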

How the data were processed

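RNA was extracted with a column kit, amplified by SmartSeq2, which copies polyadenylated RNA along its length without molecular identifiers or strand information, and sequenced as single-end reads. Per the submitters' processing notes, bcl2fastq 2.20 and kallisto 0.44.0 were used. The authors deposited 1 table of gene counts, made from estimated counts summed by symbol and rounded, with no normalization. The authors also deposited, for each library, a table of transcripts with estimated counts and TPM (Gencode, GRCm38), used here for levels, lengths, Xist and 1 alternative. Transcripts were matched to symbols through Gencode vM21, for 48 of the 49 Nduf genes, and 96.2% of their gene values were within 1 count of the transcript sums. Shared exonic bases came from the same annotation.

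KO and WT were compared for genes with 11 or more counts in total in edgeR 4.0.16 (R 4.3.3), by glmQLFit with robust estimation after TMM normalization, with Benjamini-Hochberg adjustment over all 16725 genes and a threshold of 0.1. Standard errors were derived from the F statistic. CPM are TMM-normalized. DESeq2 1.42.0 (with the log2 fold-change threshold of 0.1 of the study, or without) and limma 3.58.1 on log2(TPM + 1) were alternatives, with other scalings, filters, an adjusted p below 0.05, an Xist covariate, a loess offset (span 0.3) on TPM-weighted transcript length, and each library left out. The offset with plain mean length and the fit of KO replicates 2 and 3 were added after seeing the data. Exact permutation tests ran over the 210 splits into 6 and 4. Counts were simulated for 16352 genes with these libraries' sizes and edgeR's trended dispersion. Of 200 well-counted genes changed by 1.5 on the log2 scale, 112 were called, beside 5 unchanged genes. That change is larger than the Nduf median of -0.64, and changes of the size of that median were not simulated. Depth limits cover counting error only.

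The Nduf genes and the lists were chosen with earlier results of these data known. Genes with values in each library are, in each class, the 3 with the smallest p and the 1 with the largest. Tables and figures were made with Python and pandas. Reads and protein sequences were not used here. 1 of the Nduf genes enters the counts and medians but is not reported by name.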

Additional observations from a re-analysis of the deposited data

Results flagged for a closer look

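Of 36 groups of values (18 named genes in KO and in WT), 3 held a library set apart by a gap that chance gives in about 1 of 20 groups. Ndufv2 was at 135 CPM in KO replicate 4, below the other KO libraries. Ndufa12 was at 276 CPM in KO replicate 3 and Ndufaf2 at 37.1 CPM in the same library, each above the other KO libraries. KO replicate 3 was also the library with the highest level of most subunits in KO.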

How the results depend on the processing

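The count of subunit symbols lower in KO, 16 by edgeR, was 29 with DESeq2 without a threshold, 3 with the length offset, 4 with the offset on plain mean length, and 0 with TPM, with Xist as a covariate, for KO replicates 2 and 3 against WT, and at an adjusted p below 0.05. For assembly factors, 2 by edgeR, these counts were 4, 1, 1, 0, 0, 0 and 0, and upper-quartile normalization gave 1. Over all genes, of 15507 to 16725 tested, they were 1145, 419, 468, 12, 0, 0 and 0, with 446 by edgeR and 316 with upper-quartile normalization. Leaving out 1 library gave 0 to 27 subunits, 0 to 2 assembly factors and 0 to 598 of all genes. No alternative called an Nduf gene higher. The medians moved beyond the spread between libraries with TPM alone, to -0.19 for subunits and -0.13 for assembly factors. The median of all genes was 0.06 by edgeR and 0.27 with TPM. The cause was not tested. Over 1126 pairs of a gene and an alternative, 847 kept direction and side of the threshold, 231 lost the call, 41 gained it and 7 turned sign. On the TPM scale Ndufa3 (0.04), Ndufa4l2 (0.21), Ndufaf1 (0.06) and Ndufs4 (0.20) turned positive, below the median of all genes there (0.27). Ndufa4l2 also turned positive without WT replicate 1 (1.07, and down to -1.12 without another library). Ndufa12.ps turned negative with Xist as a covariate (-0.15) and for KO replicates 2 and 3 (-0.52). No paired analysis was possible because no label ties a library to a litter. Depth limits Ndufa4l2 and Ndufa12.ps, at few counts in each library.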
